A study of Mus musculus with 24 samples.

Results

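The Frizzled receptors, encoded in the mouse by Fzd1 to Fzd10, were followed in male mouse embryonic stem cells (mESCs) on their way to neuromesodermal progenitors (NMPs), the bipotent cells that give rise to spinal cord and trunk mesoderm. The members were the 10 rows of the count table with these symbols, of 35591 genes in all, and each was measured in all 24 libraries. Poly(A) RNA was sequenced from 6 lines, each derived from a separate blastocyst and sampled at day 0, day 2, day 2.5 and day 3, which gave 8 groups of 3 libraries. The comparison of genotypes asked whether carrying a single working copy of Smchd1, which encodes a chromatin protein with a role in silencing, changes gene expression during this differentiation. The 3 Smchd1wt lines carried 1 floxed and 1 unmodified allele (Smchd1 fl/+), and the 3 Smchd1het lines carried 1 deleted and 1 unmodified allele (Smchd1 del/+). All 6 lines were offspring of a Castaneus (Cast) mother with unmodified Smchd1 and a C57BL/6 father that was Smchd1 del/fl and carried the MMTV-Cre transgene, so the modified allele was paternal in both genotypes. MMTV-Cre is a transgene in which a mammary tumour virus promoter drives the Cre recombinase, and whether a given line inherited it is not stated in the sources used here. The lines had been kept in medium with LIF and inhibitors that included CHIR99021, an activator of Wnt signalling, and were moved into serum medium with LIF before day 0. The libraries labelled day 2 came from cells in N2B27 medium with basic FGF, and CHIR99021 was added at day 2, so day 2.5 and day 3 followed Wnt activation.

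Frizzled proteins are cell-surface receptors that bind Wnt ligands through a cysteine-rich domain outside the cell. Together with Lrp5 or Lrp6 they recruit Dishevelled and stabilise beta-catenin, which acts on genes with Tcf/Lef factors, and other Frizzled signals act on cell polarity without beta-catenin. CHIR99021 inhibits Gsk3 and so raises beta-catenin downstream of the receptors, without a need for a ligand. By sequence the family falls into Fzd1, Fzd2 and Fzd7, into Fzd5 and Fzd8, into Fzd4, Fzd9 and Fzd10, and into Fzd3 and Fzd6, and the genes are described below in that order. Wnt signals are needed in the embryo for the primitive streak and for the growth of the trunk and tail from neuromesodermal cells.

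The library totals ranged from 7.10 to 20.8 M (mega) counts, the smallest belonging to wt line 2 at day 2.5. The summed level of 6 pluripotency markers was 2422 to 2708 counts per M counts (CPM) at day 0 and 290 to 557 CPM at day 3. The largest part was Pou5f1, which naive and later pluripotent cells share, at 1320 and 1163 CPM in wt and het lines at day 0, while Esrrb, a gene of the naive state, was at 362 and 377 CPM at day 0 and 20.3 and 30.8 CPM at day 3. The summed level of 6 neuromesodermal markers was 213 to 282 CPM at day 0, 49.2 to 91.3 CPM at day 2 and 642 to 1222 CPM at day 2.5. Before day 2.5 that sum was mostly Sox2, which pluripotent cells also express and which is counted in both lists, at 239 and 235 CPM in wt and het lines at day 0 and 67.9 and 66.5 CPM at day 2, while the group means of T were 2.57 CPM or less. From day 2 to day 2.5, 5 of the 6 were called higher and 1 lower in each genotype, beside 14.6% of all genes called higher in wt and 21.8% in het lines. The 4 markers of the epiblast-like stage had a summed level of 979 to 1175 CPM at day 0 and 1213 to 1432 CPM at day 2, and 2 of 4 were called higher in wt and 3 of 4 in het lines, beside 22.4% and 28% of all genes. Fgf5, which marks that stage, was called in neither genotype, with 10.8 ± 1.54 CPM at day 0 and 10.8 ± 3.98 CPM at day 2 in wt lines (SD, n = 3). A further cell type could be present. The summed level of 17 markers of extraembryonic endoderm was 8114 to 16110 CPM in wt lines and 5080 to 6890 CPM in het lines at day 2, with no overlap, and 12 of the 15 markers tested were called lower in het lines at that day, beside 0.551% of all genes called. The genotypes also did not overlap at day 0 (2753 to 4304 CPM in wt and 1662 to 2278 CPM in het lines), and overlapped at day 2.5 (5500 to 14109 and 5703 to 8456 CPM) and day 3 (5633 to 10996 and 4325 to 7009 CPM). The largest parts of the sum were matrix genes. Over the libraries the medians of Col4a1, Lama1, Lamb1, Sparc and Col4a2 were 1660, 1277, 992, 821 and 735 CPM. Those of the transcription factors Gata4, Gata6 and Sox17 were 42.0, 25.2 and 13.8 CPM, so the sum mainly follows the former. Of these 17 markers, Afp and Ttr, which mark later yolk sac endoderm, had at most 0.704 and 1.29 CPM in any library and were at 0 in whole groups, Afp in wt day 0, het day 2 and het day 3 and Ttr in wt day 0 and het day 0, while no group lacked Gata4, Gata6 or Sox17. In bulk RNA of this kind, fewer cells of a type and less RNA per cell cannot be told apart.

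The 10 genes lie on 7 chromosomes of the GRCm38 genome (GENCODE vM21 annotation), and 6 of them (Fzd1, Fzd2, Fzd7, Fzd8, Fzd9 and Fzd10) are each a single exon, against 6.50% of protein-coding genes. Their reads therefore come from 1 uninterrupted stretch each, for instance chr1:59482424-59486955 on the plus strand for Fzd7 and chr5:128600844-128604093 on the plus strand for Fzd10. Fzd3 is the longest, with a span of 70015 bases on the minus strand (chr14:65192449-65262463) and 7 exons in its longest transcript. In 8 of the 10 genes, all stretches of 75 bases of the longest transcript occurred in no other gene, and the share was 98.2% for Fzd6. For Fzd5 (chr1:64730558-64737751, minus strand) the share was 84.1%, and its exons overlap 1233 bases of exons of the antisense gene Gm38058. Whether each library was stranded is not stated, so the reads of these overlapping parts cannot be assigned and Fzd5 values are uncertain to that extent.

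The promoters are shown for the 2 members whose 250 bases before the RefSeq start lie wholly outside annotated GENCODE exons, since Fzd7 was the receptor that led the family before Wnt activation and Fzd1 is its relative at much lower level. Windows of 250 bases before to 50 after a RefSeq start were found for 6 members (Fzd1, Fzd4, Fzd5, Fzd7, Fzd9 and Fzd10). Each was searched on both strands for a core bound by Tcf/Lef factors, spelled as CTTTGAA or as CTTTGAT, and equally as CTTTGTA or else as CTTTGTT. Of the 6 windows, only that of Fzd7 held such a match, which is a description and not a binding site, and 16.9% of all windows of this length in the RefSeq table held at least 1. The match is in capitals below, reads AACAAAG on the plus strand and begins 130 bases before the start. Sequences are from RefSeq, GRCm38.p6, written 5′ to 3′ on the strand of the gene, Fzd7 from chr1:59481897-59482146 (plus strand) and Fzd1 from chr5:4758217-4758466 (minus strand).
Fzd7: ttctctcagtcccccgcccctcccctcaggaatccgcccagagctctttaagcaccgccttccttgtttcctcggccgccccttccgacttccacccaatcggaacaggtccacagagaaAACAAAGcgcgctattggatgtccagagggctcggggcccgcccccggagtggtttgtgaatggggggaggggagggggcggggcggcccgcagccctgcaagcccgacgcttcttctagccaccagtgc
Fzd1: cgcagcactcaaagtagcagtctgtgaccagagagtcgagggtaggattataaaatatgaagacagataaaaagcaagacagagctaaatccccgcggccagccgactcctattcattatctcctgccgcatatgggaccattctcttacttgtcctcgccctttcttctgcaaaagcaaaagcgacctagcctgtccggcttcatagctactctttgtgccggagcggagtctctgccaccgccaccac
The share of G and C in the 6 windows ran from 54% in Fzd1, close to the median of 52.7% over all windows, to 78% in Fzd9. Their ratio of observed to expected CpG was 0.727 to 1.18, against a median of 0.384.

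Levels are given as reads per kilobase of exon and per M counts (RPKM), computed here from the counts with composition-scaled library sizes, so that genes of different length can be set side by side. Summed over the family, the level was 34.6 ± 1.82 RPKM in wt and 33.4 ± 1.51 RPKM in het lines at day 0 (SD, n = 3 lines). It was 57.2 ± 5.74 and 57.1 ± 2.99 RPKM at day 2, 50.5 ± 9.63 and 52.6 ± 7.96 RPKM at day 2.5, and 46.8 ± 1.25 and 50.2 ± 7.62 RPKM at day 3. Within these sums the leading receptor changed. Fzd7 made up 51.1% of the summed wt level at day 0 and 68.3% at day 2, whereas Fzd10 made up 57.3% at day 2.5 and 38.8% at day 3. The het lines gave 50.4% and 69.6% for Fzd7 at day 0 and day 2, and 60.8% and 40.9% for Fzd10 at day 2.5 and day 3.

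**Figure D1:**
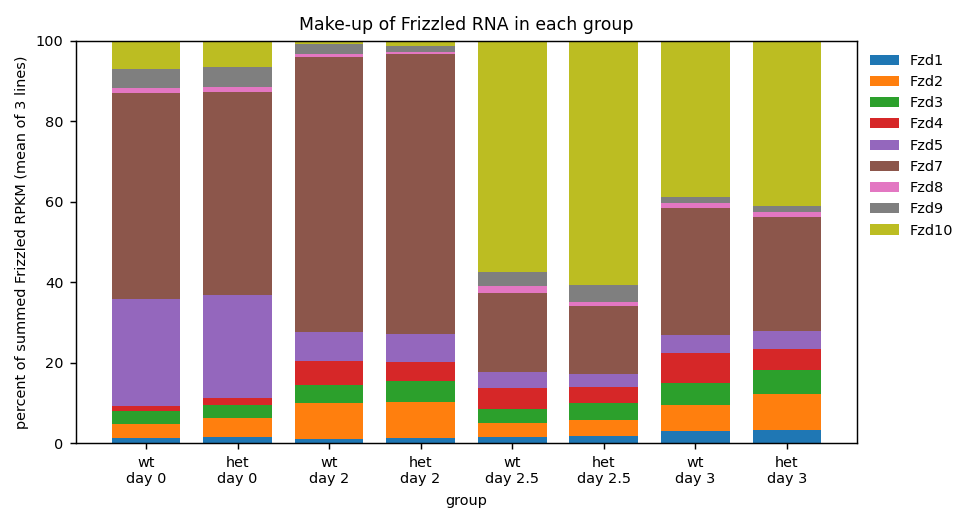
Stacked bars show the percent of the summed Frizzled RPKM (y axis, mean of 3 lines) that each of 9 genes made up in each genotype and day (x axis), Fzd6 being listed at 0. Fzd7 fills over 50% of the bars at day 0 and day 2, and Fzd10 fills over 57% of the bars at day 2.5.

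The order of levels within a day was similar in the genotypes at the top and overlapping lower down. At day 0 the order from the top was Fzd7, Fzd5 and Fzd10 in both genotypes, with no overlap between these neighbours over lines. At day 2, Fzd7 stood alone at 39.2 ± 5.04 RPKM in wt and 39.8 ± 3.16 RPKM in het lines. The next genes there, Fzd2 at 5.20 ± 0.813 and Fzd5 at 4.13 ± 1.04 RPKM in wt lines, overlapped each other. At day 2.5, Fzd10 was above Fzd7 in every line, and Fzd7 was above all other members. At day 3, Fzd10 and Fzd7 overlapped in both genotypes. Group means of Fzd1 and Fzd8 stayed under 1.66 and 0.805 RPKM. Fzd10 at day 2 (0.506 RPKM in wt and 0.743 in het lines) and Fzd9 at day 3 (0.711 and 0.801 RPKM) were also low, both under Fzd1 on those days. Counts behind the values of the first pair were 13 to 174 per library for Fzd1 and 10 to 99 for Fzd8.

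**Figure D2:**
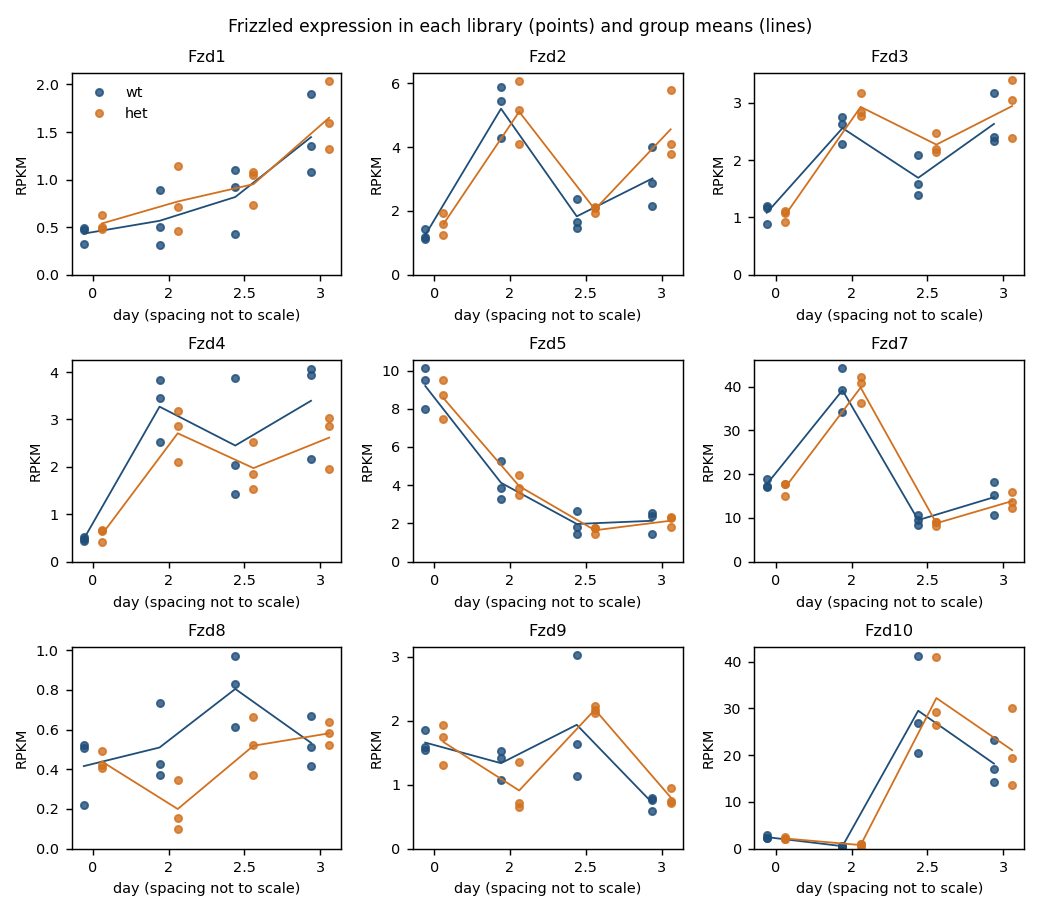
Each panel shows 1 gene, with RPKM on the y axis (from 0) and the 4 sampling days on the x axis, points for the 3 wt and 3 het lines and lines through the group means. Fzd7 peaks at day 2 with 34.2 to 44.2 RPKM, Fzd10 at day 2.5 with 20.5 to 41.1 RPKM, and Fzd5 is highest at day 0 with 7.44 to 10.1 RPKM.

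Of the group of Fzd1, Fzd2 and Fzd7, Fzd7 is the receptor best known from pluripotent stem cells. Its level was 17.2, 17 and 18.9 RPKM in wt lines 1, 2 and 3 at day 0 and 44.2, 34.2 and 39.1 RPKM at day 2. At day 2.5 it was 8.38, 9.46 and 10.6 RPKM, and at day 3 it was 10.7, 15.1 and 18.3 RPKM. Day 2 lay above every other day and day 2.5 below every other day in these lines. In the het lines the values were 17.8, 15.1 and 17.7 RPKM at day 0, 42.2, 36.2 and 40.9 at day 2, 8.16, 9.14 and 9.03 at day 2.5 and 12.2, 15.8 and 13.6 at day 3. Day 2 was again the highest and day 2.5 the lowest, without overlap.

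Fzd2, which signals both with and without beta-catenin, had its highest levels at day 2 in wt lines. The wt lines had 1.45, 1.17 and 1.12 RPKM at day 0, 5.87, 5.45 and 4.30 at day 2, 2.37, 1.65 and 1.47 at day 2.5 and 4.01, 2.16 and 2.88 at day 3. The het lines had 1.26, 1.59 and 1.92 RPKM at day 0, 5.15, 6.07 and 4.11 at day 2, 1.94, 2.08 and 2.11 at day 2.5 and 5.79, 3.77 and 4.11 at day 3. In het lines, day 3 overlapped day 2, and in wt lines it did not. Fzd1, a receptor for Wnt ligands that is closely related to both, had its highest group means at day 3. It had 0.475, 0.496 and 0.327 RPKM in wt lines at day 0 and 1.90, 1.35 and 1.08 RPKM at day 3, without overlap, while days 2 and 2.5 lay at 0.310 to 1.10 RPKM.

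Fzd5, a receptor known from yolk sac and eye development, was the second receptor at day 0 and lost that place later. It had 10.1, 7.97 and 9.49 RPKM in wt lines at day 0, 5.28, 3.26 and 3.84 at day 2, 1.45, 1.83 and 2.64 at day 2.5 and 1.45, 2.41 and 2.55 at day 3. The het lines had 7.44, 9.50 and 8.73 RPKM at day 0, 4.52, 3.84 and 3.49 at day 2, 1.74, 1.76 and 1.43 at day 2.5 and 1.81, 2.35 and 2.27 at day 3. Every day 0 library was above every later library. Its relative Fzd8, known from the anterior embryo, stayed at 0.10 to 0.973 RPKM in all 24 libraries.

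Fzd10, a receptor known from the primitive streak and the posterior neural tube, covered the widest range of the family. It had 2.82, 2.20 and 2.33 RPKM in wt lines at day 0 and 0.378, 0.509 and 0.631 RPKM at day 2. At day 2.5 the same lines had 41.1, 26.8 and 20.5 RPKM, and at day 3 they had 23.3, 17.1 and 14.2 RPKM. The het lines had 2.44, 2.02 and 2.01 RPKM at day 0, 1.05, 0.885 and 0.300 at day 2, 29.2, 26.4 and 41.0 at day 2.5 and 30.1, 13.7 and 19.4 at day 3. In both genotypes day 2 was the lowest day, day 0 came next, and both days after Wnt activation were higher without overlap with day 0. The count was at least 15 in every library, so the low day 2 values were above the floor of 3 counts.

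Fzd4, the receptor that also binds the non-Wnt ligand Norrin in retinal vessels, was low at day 0 and higher on all later days. It had 0.510, 0.487 and 0.441 RPKM in wt lines at day 0, 2.54, 3.44 and 3.83 at day 2, 1.44, 2.04 and 3.87 at day 2.5 and 2.17, 4.07 and 3.94 at day 3. The het lines had 0.644, 0.408 and 0.677 RPKM at day 0, 2.09, 2.86 and 3.17 at day 2, 1.54, 2.53 and 1.86 at day 2.5 and 1.96, 2.86 and 3.03 at day 3. The endoderm markers were set beside these values, line by line. Their summed level in wt lines 1, 2 and 3 was 2753, 2795 and 4304 CPM at day 0, 8114, 11110 and 16110 CPM at day 2 and 5500, 8904 and 14109 CPM at day 2.5, so that the order of the lines was that of Fzd4 at day 2 and day 2.5. The order was the same in 3 of the 8 groups, the last being het day 3, and it was not at day 0, where the wt order was the reverse, at wt day 3, or at het day 2 and day 2.5. Their part in the Fzd4 level was not tested. Fzd9, a receptor known from the brain and bone, had 0.580 to 3.03 RPKM over the libraries, with its lowest wt and het group means at day 3.

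Fzd3, which acts in axon guidance and planar cell polarity, was at its lowest at day 0. It had 1.19, 1.16 and 0.891 RPKM in wt lines at day 0, 2.76, 2.64 and 2.28 at day 2, 2.09, 1.59 and 1.40 at day 2.5 and 3.17, 2.33 and 2.40 at day 3. In het lines it had 1.08, 0.917 and 1.11 RPKM, then 3.17, 2.77 and 2.84, then 2.19, 2.14 and 2.48, then 3.39, 2.39 and 3.05 RPKM on the same days. Its partner in planar cell polarity, Fzd6, was listed at 0 counts in all 24 libraries. It lies in a run of 7 neighbouring genes, from chr15:38713483-39087121, that were all listed at 0. Just beyond that run Slc25a32, a mitochondrial carrier that most cells use, had 6 counts in all libraries together, while Atp6v1c1 and Dcaf13, on either side, had 51895 and 16241 counts. A listing of 0 in this stretch is therefore not read as a measured absence of Fzd6, and 9 of the 10 members passed the filter on low counts in all comparisons.

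The first step, from day 0 to day 2, asks what changed as LIF was withdrawn and basic FGF was given, before Wnt activation. The paper also seeded cells for day 0 more densely than those for day 2, so medium, time and density cannot be told apart. Fzd2, Fzd3, Fzd4 and Fzd7 rose and Fzd5 and Fzd10 fell, in wt and in het lines alike. Of the 9 members tested, 6 were called in wt lines (4 higher, 2 lower), where 44.3% of all genes tested were called, 22.4% higher and 21.9% lower. In het lines 6 were called (4 higher, 2 lower), where 56.1% of all genes were, 28% higher and 28.1% lower. Calls were made by the edgeR quasi-likelihood test at a Benjamini-Hochberg adjusted p under 0.05 over all genes tested. The median change over the 9 members was 0.39 in wt and 0.53 in het lines on the log2 scale, against 0.02 and 0.01 over all genes.

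Fzd4 had the largest rise, 6.83-fold in wt lines (log2 fold change 2.77 ± 0.24, SE, adjusted p = 8.65e-07 by edgeR) and 4.74-fold in het lines (2.24 ± 0.24, adjusted p = 9.7e-07). Fzd2 rose 4.19-fold in wt (2.07 ± 0.24, adjusted p = 1.01e-05) and 3.26-fold in het lines (1.70 ± 0.21, adjusted p = 5.6e-06). Both rose in 3 of 3 lines of each genotype. Fzd7, already the leading member, rose 2.23-fold (1.16 ± 0.12) and 2.39-fold (1.25 ± 0.08), and Fzd3 rose 2.37-fold (1.25 ± 0.18) and 2.86-fold (1.52 ± 0.13), all with adjusted p of 6.61e-05 or less in edgeR. Fzd10 fell by 2.27 ± 0.36 on the log2 scale in wt lines (adjusted p = 0.000172 by edgeR) and by 1.51 ± 0.37 in het lines (adjusted p = 0.00284). Fzd5 fell by 1.15 ± 0.18 in wt and by 1.10 ± 0.12 in het lines. Fzd1 was not called, with log2 fold changes of 0.39 ± 0.56 in wt and 0.53 ± 0.43 in het lines. The calls of the 6 genes were made in both genotypes under all 12 alternatives. Fzd8 and Fzd9, at −1.12 ± 0.53 and −0.85 ± 0.41 in het lines, were called there only without het line 1 (adjusted p = 0.0171) and het line 2 (0.0191) at day 2, respectively, or in a fit of all 24 libraries (0.0312 and 0.0462).

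**Figure D3:**
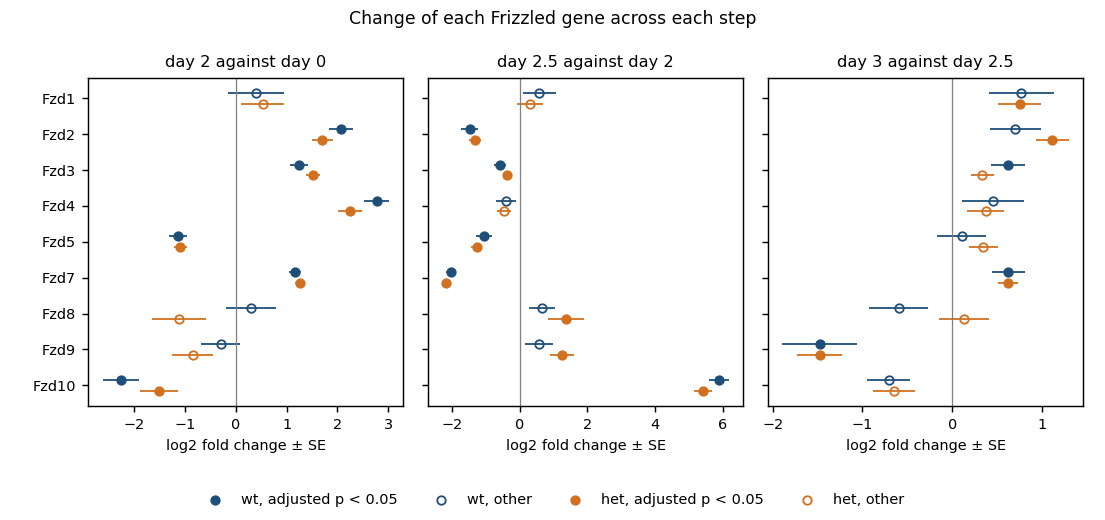
Log2 fold change and its SE (x axis) of 9 Frizzled genes (y axis) across the 3 steps, in wt and het lines (3 lines each), with filled points at an adjusted p under 0.05. Fzd10 stands apart at day 2.5 against day 2, at 5.88 in wt and 5.41 in het lines, while Fzd7 lies at −2.03 and −2.18.

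The step from day 2 to day 2.5 asks what changed in the first hours after Wnt activation. No library of day 2.5 came from cells without CHIR99021, so Wnt activation and the added time cannot be told apart. Fzd10 rose 58.8-fold in wt and 42.6-fold in het lines, while Fzd7, Fzd2, Fzd5 and Fzd3 fell. In wt lines 5 of 9 members were called (1 higher, 4 lower), against 29.1% of all genes tested, 14.6% higher and 14.5% lower. In het lines 7 were called (3 higher, 4 lower), against 44.7% of all genes, 21.8% higher and 22.9% lower. The median over the members was −0.40 in wt and −0.37 in het lines, and that over all genes was 0.00 and 0.01.

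For Fzd10 the log2 fold change was 5.88 ± 0.30 in wt lines (adjusted p = 5e-08 by edgeR) and 5.41 ± 0.27 in het lines (adjusted p = 4.01e-09). By line the log2 change was 6.65, 5.64 and 4.96 in wt lines 1, 2 and 3 and 4.76, 4.85 and 6.96 in het lines 1, 2 and 3. The lines of a genotype thus differed among themselves by more than the genotypes did. Fzd7 fell by 2.03 ± 0.14 on the log2 scale in wt lines (adjusted p = 7.02e-07 by edgeR) and by 2.18 ± 0.09 in het lines (1.05e-09), in 3 of 3 lines of each. Fzd2 fell by 1.48 ± 0.25 and 1.32 ± 0.19, and Fzd5 by 1.05 ± 0.25 and 1.27 ± 0.16, with adjusted p of 0.00651 or less in edgeR. These 4 genes were called in both genotypes under all 12 alternatives.

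Most of the remaining calls of this step changed with single libraries or settings. Fzd3 fell by 0.58 ± 0.19 in wt lines (edgeR adjusted p = 0.0333), a call lost without wt line 1 (0.0982) or line 2 (0.0726) at day 2, or without line 2 (0.111) or line 3 (0.13) at day 2.5. In het lines it fell by 0.37 ± 0.12 (edgeR adjusted p = 0.0194), lost without line 1 at day 2 (0.077) and without line 1 (0.0893) or line 2 (0.0791) at day 2.5, and with scaling by library totals alone (0.0571) or a fit of all 24 libraries (0.0877). Fzd9 rose by 1.25 ± 0.36 in het lines (edgeR adjusted p = 0.0123) under all 12 alternatives, and was at 0.57 ± 0.41 in wt lines (0.316). Fzd8 rose by 1.37 ± 0.52 in het lines (edgeR adjusted p = 0.0452), but was not called with the line as a block (0.0672), nor without het line 2 (0.112) or line 3 (0.0902) at day 2 or any of lines 1, 2 and 3 (0.0502, 0.19 and 0.104) at day 2.5. Fzd4 was not called, at −0.40 ± 0.30 in wt and −0.46 ± 0.21 in het lines. The het value had an adjusted p of 0.0881 in edgeR, 0.0453 with the line as a block, 0.0461 without the filter, and 0.0361 and 0.0273 without het line 1 at day 2 and het line 2 at day 2.5. The wt value was called only without wt line 3 at day 2.5 (0.0211).

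Across the 24 libraries Fzd7 and Fzd10 ran opposite, with a Pearson r of −0.91 on log2(CPM + 1). This is a description, since the points share lines and fall into 4 days. The ratio of Fzd10 to Fzd7 was 0.114 to 0.164 at day 0, 0.00733 to 0.0248 at day 2, 1.93 to 4.90 at day 2.5 and 0.773 to 2.48 at day 3. Fzd2 and Fzd3 had the highest positive r among the members, 0.86.

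**Figure D4:**
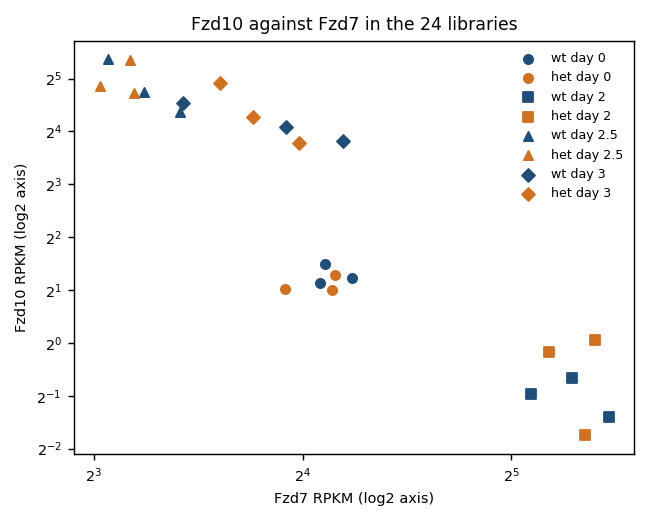
Each point is 1 of 24 libraries, with Fzd7 RPKM on the x axis and Fzd10 RPKM on the y axis (both log2 axes), markers by day and colours by genotype. The day 2 libraries lie at high Fzd7 and under 1.05 RPKM of Fzd10 or at it, and the day 2.5 libraries lie at 8.16 to 10.6 RPKM of Fzd7 and 20.5 RPKM or more of Fzd10.

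From day 2.5 to day 3, in the continued presence of CHIR99021, Fzd7 rose and Fzd9 fell in both genotypes. In wt lines 3 of 9 members were called (2 higher, 1 lower), against 19.1% of all genes tested, 8.99% higher and 10.1% lower. In het lines 4 were called (3 higher, 1 lower), against 29.8% of all genes, 13.8% higher and 16% lower. The median over the members was 0.45 in wt and 0.35 in het lines, and that over all genes was 0.00 and −0.02. Fzd7 rose 1.54-fold in wt (0.62 ± 0.19, adjusted p = 0.0386 by edgeR) and 1.54-fold in het lines (0.62 ± 0.11, adjusted p = 0.00176), in 3 of 3 lines of each. Fzd9 fell by 1.48 ± 0.42 in wt (adjusted p = 0.0315 by edgeR) and by 1.47 ± 0.25 in het lines (0.00143), again in every line. Fzd2 rose 2.17-fold in het lines (1.12 ± 0.18, adjusted p = 0.00111 by edgeR) and was at 0.71 ± 0.28 in wt lines (0.107). Fzd1 rose by 0.75 ± 0.24 in het lines (edgeR adjusted p = 0.0351), and its wt value was alike at 0.77 ± 0.36 (0.163). Fzd3 rose by 0.63 ± 0.19 in wt lines (edgeR adjusted p = 0.0404) and was at 0.34 ± 0.13 in het lines (0.0717). Fzd10 was at −0.71 ± 0.24 in wt (edgeR adjusted p = 0.0637) and −0.65 ± 0.23 in het lines (0.0557), lower in both but short of the threshold, and was called under 6 of the 12 alternatives in wt and 3 of 12 in het lines.

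With the line as a block, 6 members were called at this step in wt lines instead of 3, Fzd2 (edgeR adjusted p = 0.0193), Fzd4 (0.0463) and Fzd10 (0.000209) being added, and Fzd10 was called in het lines as well (0.0125). Fzd10 was also called in wt lines without the filter (0.000715), by DESeq2 (0.0217) and in a fit of all 24 libraries (0.0435), and in het lines without the filter (2.18e-06). In the fit of all 24 libraries Fzd2 was called in wt lines (0.0346) and the het call of Fzd1 was lost (0.155), and Fzd3 was called in het lines without the filter (0.0202). Leaving out a single library could end each of the 3 wt calls and the het call of Fzd1, and 0 to 4 members were then called in wt lines. The call of Fzd3 was lost without wt line 2 (0.126) or line 3 (0.113) at day 2.5 or any of lines 1, 2 and 3 (0.14, 0.0702 and 0.0816) at day 3. That of Fzd7 was lost without wt line 1 (0.0798) or line 2 (0.113) at day 2.5 or line 2 (0.126) or line 3 (0.167) at day 3. That of Fzd9 was lost without wt line 1 at day 2.5 (0.153) or any of lines 1, 2 and 3 (0.0658, 0.0997 and 0.0816) at day 3, and its log2 value without line 1 at day 2.5 was −0.99. Fzd2 and Fzd4 were called in wt lines without line 1 (0.0475) and line 3 (0.0484) at day 2.5, and Fzd10 without line 3 at day 2.5 (0.0183) or line 1 at day 3 (0.0345). In het lines the calls of Fzd2, Fzd7 and Fzd9 were made under all 12 alternatives. That of Fzd1 was lost without line 1 (0.0505) or line 2 (0.114) at day 2.5 or line 1 (0.126) or line 3 (0.0844) at day 3, and Fzd3 and Fzd10 were called without line 2 (0.0151) and line 1 (0.00284) at day 3.

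Whether a step differed between the genotypes was tested as an interaction. None of the 9 members was called at any of the 3 steps by edgeR, which called 0% of all genes. DESeq2 also called 0 of the members, beside 10 of all genes for day 2 against day 0. An unadjusted p under 0.05 in edgeR was found for 0 members, beside 1034 of 16387, 850 of 16569 and 635 of 16486 genes at the 3 steps. The interaction of largest size was that of Fzd8 from day 0 to day 2, −1.41 ± 0.73 on the log2 scale (edgeR adjusted p = 0.808), and for Fzd7 and Fzd10 at day 2.5 against day 2 it was −0.14 ± 0.17 and −0.45 ± 0.46. Hence a call made in a single genotype above does not mark a difference between genotypes.

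Het and wt lines were then compared on each day. At day 0 none of the 9 members tested was called by edgeR, where 0% of all genes were, and 0 had an unadjusted p under 0.05, beside 1649 of 15108 genes. At day 2, 0 members were called against 0.551% of all genes, at day 2.5, 0 against 0%, and at day 3, 0 against 0.00638%, and 1 member had an unadjusted p under 0.05 on each of these days, beside 1576 of 15414, 822 of 15588 and 1432 of 15686 genes tested. With the 4 days of each line summed, 0 members were called against 0.00544% of all genes. DESeq2 called 0 members in all of these comparisons. Of all genes, it called 82 (day 0), 233 (day 2), 3 (day 2.5) and 116 (day 3), and 145 on summed counts. Over the members the log2 fold change of het against wt ran from −0.21 to 0.32 at day 0, −1.36 to 0.54 at day 2, −0.63 to 0.42 at day 2.5 and −0.38 to 0.57 at day 3. The precision differed with level, from an SE of 0.09 for Fzd7 at day 0 to 0.58 for Fzd8 at day 2.

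**Figure D5:**
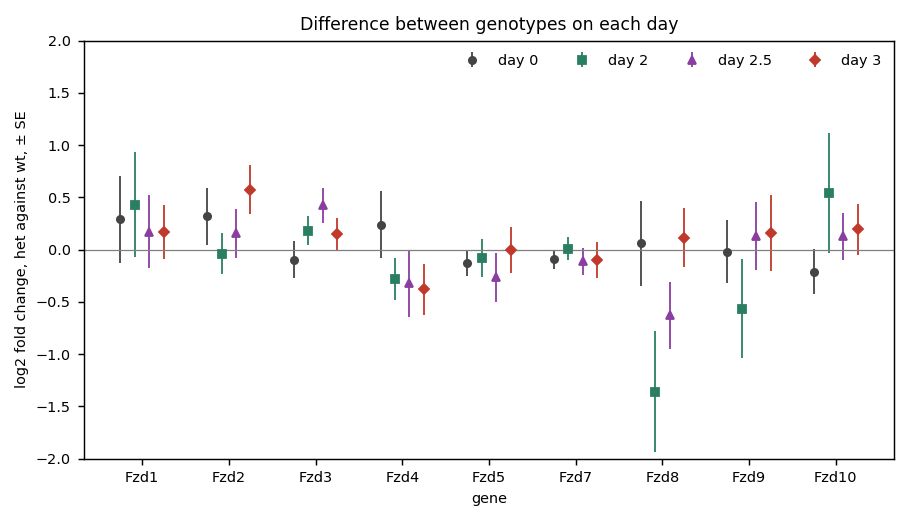
Log2 fold change of het against wt lines with its SE (y axis) for 9 Frizzled genes (x axis) on each day, 3 lines per genotype. Values lie between −0.63 and 0.57 except for Fzd8 at day 2, at −1.36 ± 0.58, and none was called.

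The member with the largest genotype difference was Fzd8 at day 2. It had 0.370, 0.732 and 0.427 RPKM in wt lines and 0.345, 0.10 and 0.152 RPKM in het lines, which did not overlap, where 15.8% of all genes tested did not. The log2 fold change was −1.36 ± 0.58 with an unadjusted p of 0.0326 and an adjusted p of 0.426 in edgeR, 0.162 to 0.699 over the alternatives. Endoderm markers were lower in the same het libraries (5080 to 6890 against 8114 to 16110 CPM). Within het lines 1, 2 and 3 the order was not shared. The sums were 5080, 6890 and 6463 CPM, and Fzd8 was at 2.06, 0.599 and 0.909 CPM. At day 0 the sums did not overlap between genotypes either, while Fzd8 was at 0.06 ± 0.41. The part of the markers in the day 2 value was not tested. Fzd3 at day 2 had 3.17, 2.77 and 2.84 RPKM in het and 2.76, 2.64 and 2.28 RPKM in wt lines, again without overlap (0.18 ± 0.14, unadjusted p = 0.201, edgeR adjusted p = 0.718). At day 2.5 it had 2.19, 2.14 and 2.48 RPKM in het and 2.09, 1.59 and 1.40 RPKM in wt lines. These also did not overlap, where 11.6% of all genes did not, and the log2 fold change was 0.42 ± 0.17 with an unadjusted p of 0.025 and an adjusted p of 0.907 in edgeR. Fzd2 at day 3 had 5.79, 3.77 and 4.11 RPKM in het and 4.01, 2.16 and 2.88 RPKM in wt lines, which overlapped (0.57 ± 0.23, unadjusted p = 0.032, edgeR adjusted p = 0.513). On that day the 4 epiblast-like markers summed to 189 to 266 CPM in het and 144 to 188 CPM in wt lines. Of these markers 0 were called by edgeR, and their part in the Fzd2 value was not tested. On counts summed over the days, Fzd7 was at −0.18 ± 0.06 (unadjusted p = 0.0112, edgeR adjusted p = 0.446), although the genotypes overlapped on each day. Fzd10 was at 0.36 ± 0.24 in the summed counts, and was called there only without wt line 1 (0.75 ± 0.14, edgeR adjusted p = 0.0207). The sum weights each day by its depth, and depth differed between the genotypes, with 18.4 to 20.6 M counts in wt and 15.5 to 17 M in het libraries at day 2, and 7.10 M in wt line 2 against 16.7 to 19.7 M in the other libraries at day 2.5. By day the values were −0.09, 0.01, −0.11 and −0.10 for Fzd7 and −0.21, 0.54, 0.13 and 0.19 for Fzd10, in the order of the days, and the part of the day weights in the summed values was not tested.

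For context, 35 genes that act with Frizzled receptors at the membrane were taken as co-receptors, Dishevelled proteins, regulators of receptor turnover, secreted Frizzled-domain proteins, Norrin and its co-factors, planar cell polarity partners and Smo, the related receptor of Hedgehog signalling. From day 0 to day 2, 11 of 29 tested rose and 2 fell in wt lines, and 16 of 29 rose and 3 fell in het lines, beside the 44.3% and 56.1% of all genes called at this step. Lrp6, the main Wnt co-receptor, rose by 0.92 ± 0.12 in wt and 0.91 ± 0.08 in het lines on the log2 scale, and Smo by 1.60 ± 0.15 and 2.00 ± 0.14. Rnf43, a ligase that removes Frizzled from the surface, rose by 3.08 ± 0.67 and 4.24 ± 0.60, from 1 to 6 counts per library at day 0. Frzb, a secreted protein with a Frizzled-like domain that binds Wnts, was also called higher in both genotypes, from 0 to 16 counts per library at day 0 to 124 to 794 at day 2.

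From day 2 to day 2.5, 7 of 28 rose and 7 fell in wt lines, and 8 of 29 rose and 11 fell in het lines, beside 29.1% and 44.7% of all genes. Znrf3, the relative of Rnf43, rose by 0.88 ± 0.18 in wt and 1.30 ± 0.14 in het lines. Ror2 and Ptk7, receptors of the branch without beta-catenin, rose by 1.85 ± 0.23 and 1.40 ± 0.21 in wt lines and by 1.67 ± 0.20 and 1.00 ± 0.12 in het lines. Lrp6 fell by 0.47 ± 0.13 and 0.55 ± 0.09, Lrp5 by 0.45 ± 0.16 and 1.12 ± 0.11, and Sfrp1, a secreted Wnt-binding protein, by 1.38 ± 0.17 and 1.35 ± 0.17. From day 2.5 to day 3, 6 of 29 rose in wt and 11 of 30 in het lines, beside 8.99% and 13.8% of all genes called higher. In either genotype 0 were called lower by edgeR, beside 10.1% of all genes in wt and 16% in het lines. Rspo3, a ligand that protects Frizzled from Znrf3 and Rnf43, went from 3 to 16 counts per library at day 2.5 to 190 to 802 at day 3. Celsr1 and Prickle1, planar cell polarity genes, rose by 1.57 ± 0.23 and 1.43 ± 0.23 in wt lines. Between genotypes, 1 of these genes was called by edgeR on any day, of 29 tested at day 2, beside 0.551% of all genes. Frzb was lower in het lines at day 2, at −1.49 ± 0.26 (edgeR adjusted p = 0.0157), with 2.32 to 3.66 RPKM against 5.64 to 12.3 RPKM in wt lines. The same lower sum of endoderm markers lay beside it, and their part was not tested.

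The genes most like each member were taken by Pearson r on log2(CPM + 1) over the 24 libraries among 15913 genes, as a description of level only. For Fzd10, the member with the widest range of group means, they were T, Sp5 and Cdx4 (r = 0.97, 0.97 and 0.96). T marks the primitive streak and NMPs, Sp5 is a direct target of Wnt signalling, and Cdx4 is a posterior patterning factor. For Fzd4 they were Retreg1, Spats2 and App (0.97 each), and for Fzd5 Tnfsf13, Dlc1 and Lmo7 (0.98, 0.97 and 0.96). For Fzd7 they were G2e3, Pi4ka and Ube2g1 (0.96 each), and for Fzd2 Nfatc4, Ank3 and Psip1 (0.95, 0.94 and 0.94). For Fzd8, r did not exceed 0.79.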

How the data were processed

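The authors trimmed reads with TrimGalore, aligned them with hisat2 2.0.5 to GRCm38.p6 and quantified genes in SeqMonk. They deposited raw counts per gene, which were used here, and log2 values (log2 RPKM) of selected genes, which were used only to check gene lengths. In 66 genes, all 66 differed from the RPKM computed here on library totals by under 0.1 log2. Columns of group means were not used, and all per-sample columns matched a label.

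Members and context lists were chosen with earlier results of these data known. All 10 members were named, and context genes were named where called the same way in both genotypes, with the number per list limited. The counts were tested with edgeR 4.0.16 in R 4.3.3 (TMM factors, filterByExpr by group, quasi-likelihood test on the groups compared), and a call means an adjusted p (Benjamini-Hochberg, over all genes tested) under 0.05. The SE is the log2 fold change divided by the square root of F. RPKM used exon lengths of GENCODE vM21, matched by identifier for 35545 genes. The replicate is the line, and p-values cover only 3 lines per group. Libraries of 1 line on different days are paired, being the same line, and their deviations from the group means correlated at −0.0465 to 0.214 over the step pairs. A wt and a het line of 1 number are different lines, so in het against wt the block by line number pairs lines arbitrarily. The floor of detection was 3 counts, which covers counting error only. The alternatives tried were scaling by DESeq2 size factors or by library totals, dropping the filter except for 1 count, the Wald test of DESeq2 1.42.0, a joint fit of all 24 libraries, a replicate block for the line number, and leaving out each library in turn. The procedure was also run on simulated counts, in which only genes above a minimum mean count were changed, so changes at lower counts were not covered. Figures were drawn with matplotlib 3.10.9 in Python 3.11.15.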

Additional observations from a re-analysis of the deposited data

How the results depend on the processing

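With 3 lines per group, small differences between genotypes could not be resolved, and the SE of het against wt was largest at day 2, at 0.58 for Fzd8, 0.57 for Fzd10, 0.50 for Fzd1 and 0.47 for Fzd9. No scaling moved the median of all genes by over 0.1 on the log2 scale. For single Frizzled genes under settings other than leaving out a library, 706 values kept their direction and their side of the threshold, 14 gained a call, 4 lost one and 8 changed sign. The calls that changed in single genes are given with the results above, and the cause was not tested.

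The number of all genes called for het against wt moved with the tool. At day 0 it was 0, and 369 without the filter, 82 by DESeq2, 1 in a fit of all 24 libraries and 25 with the line number as a block. In these comparisons the block pairs wt and het lines by number alone. At day 2 it was 85, and 384, 233 and 23 under the first 3 of these. At day 2.5 it was 0, and 87, 3 and 1. At day 3 it was 1, and 274, 116, 15 and 100 with the block. On summed counts it was 1, and 190 without the filter and 145 by DESeq2. For wt lines at day 3 against day 2.5, 2923 genes became 4687 with the line as a block, and 3 Frizzled genes became 5 in a fit of all 24 libraries and 6 with the block. The interactions called 0 genes, and without the filter 58 (day 2 against day 0), 33 (day 2.5 against day 2) and 23 (day 3 against day 2.5). For day 2 against day 0 DESeq2 called 10 and the block 2. The block changed no other count by over 1.5 times.

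Leaving out each library in turn, het against wt gave 0 to 68 genes at day 0, 0 to 211 at day 2, 0 to 3 at day 2.5, 0 to 93 at day 3 and 0 to 404 on summed counts, with 0 to 1 Frizzled genes there. Day 3 against day 2.5 gave 1281 to 2721 genes and 0 to 4 Frizzled genes in wt lines, and 3014 to 4229 genes in het lines. The interactions gave 0 to 1, 0 to 2 and 0 to 1 genes.

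None of the differences that changed sign was called. For het against wt, Fzd5 at day 3 was −0.0040, and 0.0167 with library totals, 0.0046 without the filter, 0.0077 in a fit of all 24 libraries and 0.0203 with the block, and Fzd9 on summed counts was −0.0069, and 0.0034 with library totals. With the block, the interaction at day 2.5 against day 2 went from −0.0581 to 0.0306 for Fzd4, and that at day 3 against day 2.5 from 0.0131 to −0.0223 for Fzd1 and from 0.0305 to −0.0689 for Fzd9. With 1 library left out, these log2 ranges crossed 0. At day 0, het against wt spanned −0.24 to 0.24 for Fzd8 and −0.14 to 0.12 for Fzd9. At day 2, het against wt spanned −0.18 to 0.0902 for Fzd2, −0.22 to 0.14 for Fzd5 and −0.0819 to 0.10 for Fzd7. At day 2.5, het against wt spanned −0.0945 to 0.42 for Fzd1, −0.62 to 0.21 for Fzd4, −0.47 to 0.0228 for Fzd5, −0.11 to 0.60 for Fzd9 and −0.0994 to 0.45 for Fzd10. At day 3, het against wt spanned −0.00337 to 0.42 for Fzd1, −0.23 to 0.14 for Fzd5, −0.28 to 0.0819 for Fzd7, −0.0364 to 0.30 for Fzd8 and −0.14 to 0.42 for Fzd10. On summed days it spanned −0.16 to 0.19 for Fzd9. In wt lines, day 2 against day 0 spanned −0.0939 to 0.69 for Fzd1 and −0.0516 to 0.48 for Fzd8. In wt lines, day 3 against day 2.5 spanned −0.093 to 0.38 for Fzd5. In het lines, day 3 against day 2.5 spanned −0.0639 to 0.35 for Fzd8. The interaction of genotype with day 2 against day 0 spanned −0.27 to 0.62 for Fzd1 and −0.0857 to 0.25 for Fzd5. The interaction of genotype with day 2.5 against day 2 spanned −0.74 to 0.13 for Fzd1, −0.34 to 0.47 for Fzd4 and −0.42 to 0.0828 for Fzd5. The interaction of genotype with day 3 against day 2.5 spanned −0.25 to 0.27 for Fzd1, −0.58 to 0.24 for Fzd4, −0.017 to 0.46 for Fzd5, −0.17 to 0.20 for Fzd7, −0.46 to 0.27 for Fzd9 and −0.28 to 0.30 for Fzd10.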
